A study of Mus musculus with 8 samples.

Results

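Of the 8 RNA-seq libraries made from kidney tubuloids, 2 had a read on fewer than 15000 genes, and they are described here against the other 6. Tubuloids are three-dimensional epithelial structures grown in Matrigel from primary mouse kidney fragments. The low-detection libraries are DMSO 20 and DOX 19, named by treatment and by the number in their sample titles. They were chosen by a measured value, the number of gene symbols with a summed count above 0, which was 13243 in DMSO 20 and 13599 in DOX 19. The nearest library on the other side of the limit, DMSO 15, had 17054 genes, and the highest of the other 6 had 17903. Because this measure chose the libraries, every difference between them and the other 6 is given as a description.

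All 8 libraries came from mouse kidneys labelled postnatal day 7 to 10, with the genotype Pkd2fl/fl Pax8rtTA TetOCre mTmG. The methods of the study give a younger range of ages for its kidney preparations than these labels. In this genotype the Pax8 promoter drives a doxycycline-dependent activator, so that doxycycline switches on Cre in Pax8-expressing epithelium, and the mTmG allele is a reporter of Cre. Of the tubuloids, 4 cultures received doxycycline (DOX 9, 12, 19 and 21) and 4 received the solvent dimethyl sulfoxide (DMSO 3, 5, 15 and 20), for 3 days from day 3 of a culture of 7 days. One low-detection library thus stood in each treatment group, beside 3 other libraries. Nothing in the sources used here says that the cultures came from separate animals, so p-values measure only the spread between these samples.

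A gene is visible in such a library only if its polyadenylated RNA was copied into cDNA, amplified and read, and most genes of a tissue are represented by few RNA molecules. Abundant RNAs come from genes that every cell uses, such as those of the ribosome and the respiratory chain, and from the main products of the major cell types. In kidney cultures these are keratins and claudins of epithelium, collagens of stroma, and genes of the ureteric tip, the branching end of the embryonic collecting duct, which responds to the growth factor GDNF through Ret and Gfra1.

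The counts summed to 63922677 in DMSO 20 and 75138237 in DOX 19, and to between 70505265 and 102716313 in the other 6, so the total of DMSO 20 was the lowest and that of DOX 19 lay within the range of the others. The size factors that set the scale of each library were 0.781 and 0.886, below the 0.952 to 1.41 of the other 6. Transcripts of one gene may share reads in these sums. The 100 most abundant genes took 23.5% and 27.4% of the counts in DMSO 20 and DOX 19, within the 19.6 to 29.6% of the other libraries. What was missing was the thinly covered genes. Genes with 1 to 10 counts numbered 641 in DMSO 20 and 667 in DOX 19, and 1560 to 2422 in the other 6. Genes with 11 to 100 counts numbered 1006 and 1037, against 2458 to 2688. The best covered class differed far less, with 7895 and 8347 genes above 1000 counts against 8542 to 9813. Genes with 1 to 10 counts were thus 4.84% and 4.91% of the genes detected, and 8.86 to 13.5% elsewhere.

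**Figure D1:**
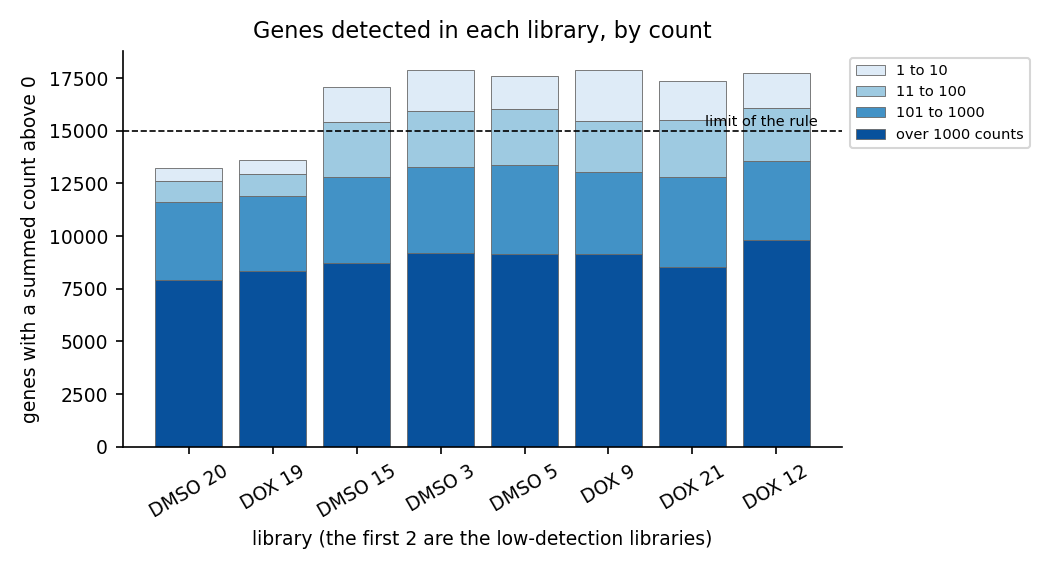
Number of genes with a summed count above 0 in each library, divided by count; the dashed line marks the limit of 15000 genes that chose DMSO 20 and DOX 19. The 2 lowest count classes were the most depleted, 641 and 667 genes with 1 to 10 counts against at least 1560 in each of the other 6 libraries.

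Of the 15695 genes counted in each of the other 6 libraries, 1636 (10.4%) had 0 counts in both low-detection libraries, and are called lost below. A further 1109 genes were at 0 in DMSO 20 and counted in each of the other 7 libraries, 8.37% of the 13244 genes counted in those 7. For DOX 19 this number was 815 of 12950 (6.29%). The same count for each of the other 6 libraries was 6 to 12 genes. No gene was counted in both low-detection libraries and absent from the other 6, and 24 and 29 genes were seen in DMSO 20 or DOX 19 alone, against 120 to 211 in each of the others. The 1636 lost genes were minor in mass, with 0.251 to 0.496% of the counts of the other libraries.

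The share of genes at 0 declined with expression level. TPM (a transcript level corrected for length and library depth) was averaged over the other 6 libraries for the 15695 genes counted in each. Between 0.1 and 0.3 TPM, 74.1% of genes were at 0 in DMSO 20, 68.8% in DOX 19 and 58.5% in both. Between 1 and 3 TPM these shares were 36.5%, 33.3% and 19.5%, and between 10 and 30 TPM they were 4.33%, 3.47% and 1.29%. Above 100 TPM 1 gene of 1827 was at 0 in each library, and none in both. The other libraries, each set against the remaining 5 of the 6, had 3.13 to 17.6% of genes at 0 between 0.1 and 0.3 TPM, at most 2.94% between 1 and 3 TPM and 0% above 30 TPM. Both low-detection libraries therefore lay above every other library in each of these ranges up to 100 TPM.

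**Figure D2:**
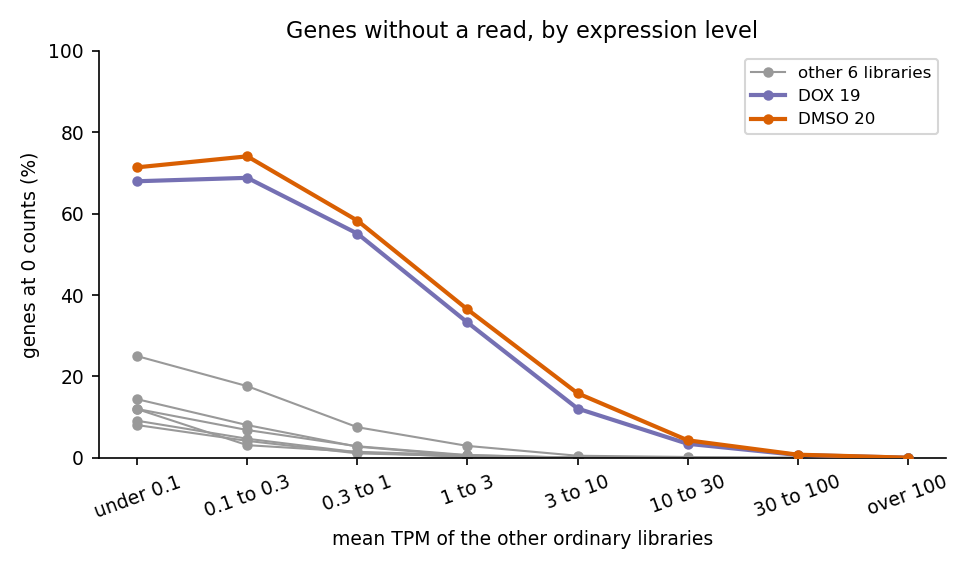
Share of genes at 0 counts in each library by mean TPM, taken over the other 6 libraries for DMSO 20 and DOX 19 and over the remaining 5 for each other library, among genes counted in all of those. DMSO 20 and DOX 19 ran nearly together from 71.4% and 67.9% under 0.1 TPM to 0.789% and 0.726% between 30 and 100 TPM.

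The loss was not limited to rare RNA. Of 11958 genes with at least 100 normalised counts in each of the other 6 libraries, 192 were lost, and of 7589 genes with at least 1000, 5 were lost. A normalised count is a count divided by a library size factor from the median ratio over genes. Genes at 0 in a single low-detection library and with at least 1000 normalised counts in each of the other 7 numbered 32 for DMSO 20 and 13 for DOX 19, and 0 for each of the other 6. Values were also more scattered. Over the 4207 genes with a mean of 100 to 1000 normalised counts in the other libraries, the log2 difference from those libraries had a standard deviation of 3.79 in DMSO 20 and 3.59 in DOX 19, against 0.746 to 1.51 in the other 6. In this class 36.0% and 33.0% of genes were at least 4-fold lower, and 6.32% and 4.09% at least 4-fold higher; in the other libraries these shares were 0.476 to 8.58% and 0.857 to 4.94%. These figures include the genes at 0. Over the genes of this class with a count in the library, 3092 in DMSO 20 and 3223 in DOX 19, the standard deviation was 1.97 and 1.90 against 0.731 to 1.26 in the other 6. Of these genes 12.9% and 12.5% were at least 4-fold lower, against 0.358 to 7.19%, and 8.60% and 5.34% at least 4-fold higher, against 0.858 to 4.97%.

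Transcript length and class went with loss. By length of the main transcript, 13.7% of genes in the shortest quintile and 7.36% in the longest were lost. Between 3 and 10 TPM the shares were 12.2% of the short, 4.69% of the middle and 1.69% of the long tertile. At an equal normalised count the order was different between 100 and 300 normalised counts, where 16.8%, 25.4% and 22.3% of the short, middle and long tertiles were lost. Between 300 and 1000 it was the same as by TPM, over a narrower range of 7.38%, 6.69% and 5.42%. Of 1427 genes with only non-coding transcripts 18.2% were lost, and of 14268 coding genes 9.64%. By GC content the loss was 9.54% in the lowest quintile and 10.9% in the highest, over the 98.1% of genes with a value. Between 3 and 10 TPM it rose from 5.26% in the low GC tertile to 6.12% in the middle and 7.08% in the high one. By chromosome the share ran from 7.57% on chromosome 9 to 14.7% on chromosome 18. Unlike length and GC content, coding class and chromosome were not compared at an equal expression level.

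Pfkfb3 (chr2:11471430-11554071, mm10), whose product sets the rate of glycolysis, was the lost gene whose lowest value among the other 6 libraries was highest. It had 0 counts in DMSO 20 and DOX 19, and 11278, 8736 and 8128 normalised counts in DMSO 15, 3 and 5 and 5437, 2730 and 4946 in DOX 9, 21 and 12. A count of 0 allows up to 3.84 normalised counts in DMSO 20 and 3.38 in DOX 19 (3 counts each), so Pfkfb3 was at least 711-fold lower than in the lowest of the other libraries. Intervals and limits of this kind cover counting error only. Tubd1, which encodes the centriolar delta-tubulin, was also at 0 in both, with 2087 to 3532 normalised counts (median 3191) in the other 6. Cldn10, a claudin of tight junctions, was at 0 against 1014 to 6131 (median 4166). No low-detection value came near the lowest of the other 6 for any of these genes. The interferon-induced GTPase Ifi47 was at 0 against 1140 to 4559 (median 1433), the kininogen gene Kng1 against 947 to 3322 (median 1516), and the metal transporter Slc39a8 against 855 to 3672 (median 1680). Eda, the ligand of the ectodysplasin receptor, was at 0 against 934 to 2413 (median 1608). Mum1l1, Srpx2 and the palmitoyltransferase gene Zdhhc15 completed the 10 highest lost genes, with lowest values of 1455, 808 and 775 in the other 6.

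Some genes kept a trace. Stat5a, a transcription factor downstream of cytokine and growth hormone receptors, had 4 counts in each low-detection library (5.12 and 4.51 normalised) and 981 to 1636 in the other 6 (median 1351), 160-fold below the lowest of them on normalised count plus 1. Bmpr1b, a receptor of bone morphogenetic proteins, had 32.0 and 22.6 normalised counts against 683 to 6903 (median 2662), 20.7-fold below the lowest. Arhgap6 had 15.4 and 9.02 against 1046 to 2094 (median 1597). Both libraries thus held these transcripts at similar low levels. Igf1, insulin-like growth factor 1, had 1 and 2 counts, with 122 to 12930 normalised counts (median 638) in the other 6. Ydjc had 1 count in each against 220 to 432 normalised counts, and 2810006K23Rik had 33 and 36 counts against 1208 to 1634 normalised counts. Zfp712, Zfp951, Gm5141 and Ccdc92 had 2 to 11 counts in DMSO 20 and DOX 19, and at least 126 normalised counts in each of the others.

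Over the 15928 genes with a mean of at least 10 normalised counts, 1797 (11.3%) were at least 2-fold lower in both low-detection libraries than in the lowest of the other 6. Of these 1338 were at 0 in both, and 175 had counts in both. Genes at least 2-fold above the highest of the other 6 numbered 131 (0.822%), of which 119 were counted in all 8 libraries. The median log2 difference of the low-detection libraries from the other 6 was -0.27 over these genes, and -0.03 over those counted in all 8. With TMM factors the first of these medians moved to 0.06, and the number of genes 2-fold higher to 198. Without DMSO 5 it was 197.

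The strongest of the raised genes were proliferins, placental hormones of the prolactin family. Prl2c2 had 8681 normalised counts in DMSO 20 and 9431 in DOX 19, and 196, 78.2, 139, 32.3, 291 and 186 in DMSO 15, 3 and 5 and DOX 9, 21 and 12. It was 29.8-fold above the highest of the other libraries on normalised count plus 1. Prl2c3 and Prl2c4 had 17.4-fold higher values, but counts of these near-identical copies could not be told apart. Both libraries stood clear of the other 6 for each of them. Il1f9, an epithelial cytokine of the interleukin-1 family, had 499 and 589 normalised counts against 0 to 31.3, and S100a8, a calcium-binding protein of neutrophils and stressed epithelium, had 218 and 204 against 0 to 23.1. The acid-sensing channel gene Asic3 had 1607 and 2483 against 12.7 to 187. Phex, an endopeptidase of phosphate balance, had 1563 and 842 against 20.2 to 117. The beta-defensin gene Defb47 and the clones 4930429D17Rik and 4833403I15Rik were 6.24-fold to 6.70-fold above the highest of the other 6.

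**Figure D3:**
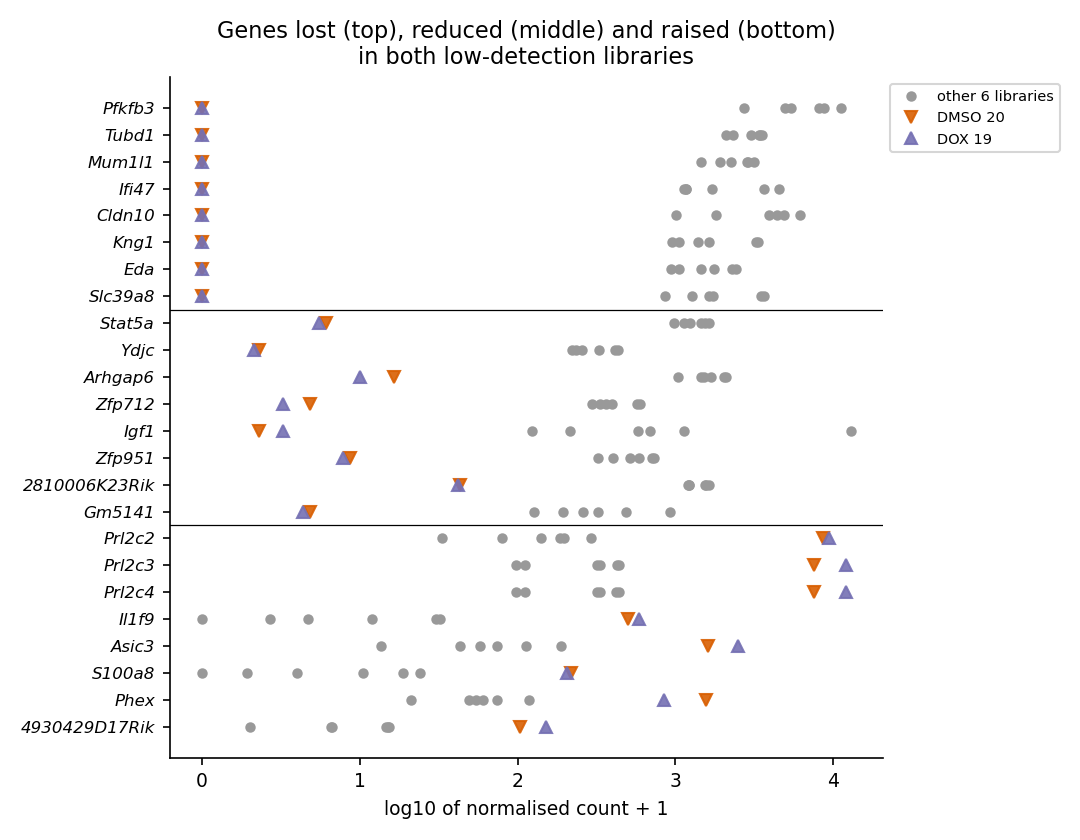
Normalised counts (log10 of count plus 1) in each library for 8 genes lost, 8 reduced and 8 raised in both low-detection libraries, the groups divided by horizontal lines. Triangles mark DMSO 20 and DOX 19, and grey points the other 6 libraries, which the triangles do not reach for any gene shown; the genes were picked for this separation.

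Much of the loss belonged to one library. Sytl2, a synaptotagmin-like protein of vesicle traffic, had 0 counts in DOX 19 and 8286 normalised counts in DMSO 20, and 4125 to 14844 (median 12261) in the other 6. Tysnd1, a peroxisomal protease gene, had 0 in DOX 19, 4056 in DMSO 20 and 7174 to 11914 in the others. Yars2, the mitochondrial tyrosyl-tRNA synthetase, had 0, 2561 and 3467 to 4974 in the same order. These genes were thus well counted in the other low-detection library, Sytl2 within and the others below the range of the other 6. The collagen VI gene Col6a2 was at 0 in DOX 19 with 2274 in DMSO 20, and Gnb1l with 3370. In DMSO 20 the zinc finger gene Zfp37 was at 0, with 9963 normalised counts in DOX 19 and 3730 to 6395 (median 5194) in the other 6. Nadk2, the mitochondrial NAD kinase, was at 0 in DMSO 20 with 3582 in DOX 19 and 4170 to 5889 in the others. L3mbtl2, a chromatin protein, Glmn and Zfp27 were likewise at 0 in DMSO 20, with 3440, 6540 and 6166 in DOX 19. DOX 19 was above the highest of the other 6 libraries for 3 of these 5 genes (Zfp37, Glmn and Zfp27).

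Each low-detection library also held transcripts almost absent elsewhere. In DMSO 20 these were Prl3d2, a placental lactogen gene, with 328 normalised counts and 0 in the other 7 libraries, and Pitx1, a homeobox gene of the hindlimb, with 141 and 0. Asz1, a germ cell gene, had 456 there and at most 5.58 in any other library. Ctcflos had 151 and Trim10 348, against at most 7.35. In DOX 19 Ambn, which encodes an enamel protein, had 275 and 0 in the other 7, the major urinary protein gene Mup20 114 and 0, and the histone variant gene H2afb3 80.1 and 0. Slc22a6, the organic anion transporter of the proximal tubule, had 289 in DOX 19 and at most 6.05 elsewhere, and the serotonin receptor gene Htr4 122 and at most 0.849. None of these 10 transcripts was seen in the other low-detection library. They were picked for this pattern, which is not particular to DMSO 20 and DOX 19. Genes counted in a single library numbered 24 and 29 there, against 120 to 211 in each of the others. C1qb, for example, had 243 normalised counts in DMSO 15 and 0 in the other 7.

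Set against its own treatment group, DMSO 20 had 0 counts for 3060 of the 16084 genes counted in each of the other 3 DMSO libraries, and DOX 19 for 3113 of the 16481 counted in each of the other 3 DOX libraries. These comparisons share no library. The 1636 genes in both lists were 53.5% of the DMSO 20 list and 52.6% of the DOX 19 list. A gene can be in both only if it is among the 15695 counted in each of the other 6 libraries. Among those the shares were 59.6% and 66.7%. On that base, 79.0% of the genes at 0 in DMSO 20 were also at 0 in DOX 19 between 0.1 and 0.3 TPM, where 68.8% of all genes were at 0 in DOX 19. Between 3 and 10 TPM these shares were 39.0% and 12.1%, and between 30 and 100 TPM they were 20.0% and 0.726%. Among the 12052 genes counted in all 8 libraries with a mean of at least 10 normalised counts, 758 (6.29%) were at least 4-fold lower in DMSO 20 than the mean of the other 3 of its group and 567 (4.70%) in DOX 19. Of these 129 were shared, 17.0% of the DMSO 20 list and 22.8% of the DOX 19 list. At least 4-fold higher were 349 (2.90%) and 279 (2.31%) genes, with 86 shared (24.6% and 30.8%). Across these genes the differences had a Pearson r of 0.226, where genes are not independent replicates. Over the 15928 genes with a mean of at least 10 normalised counts, genes at 0 included, the rank correlation of DMSO 20 with DOX 19 was 0.883. It lay within the 0.879 to 0.919 of a low-detection library with one of the others, and below the 0.911 to 0.974 among the other 6.

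**Figure D4:**
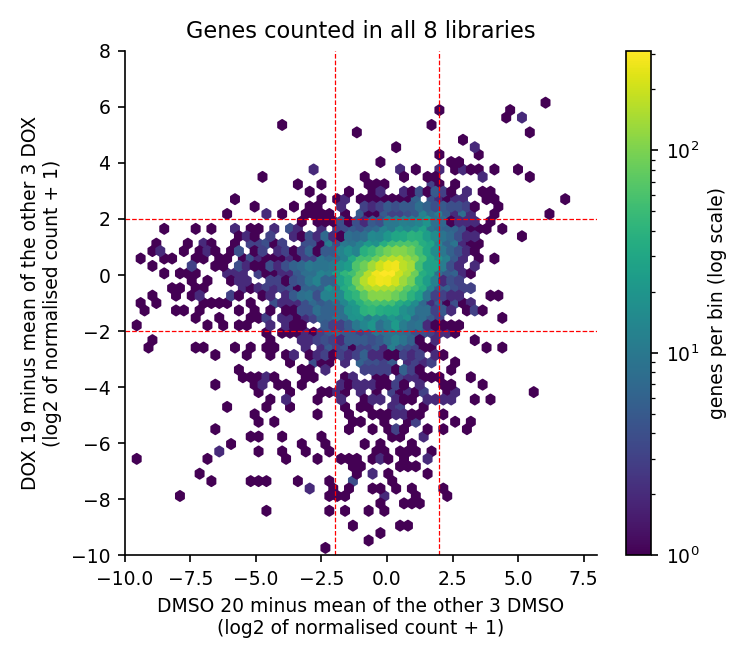
Difference of DMSO 20 from the mean of the other 3 DMSO libraries against that of DOX 19 from the other 3 DOX libraries, on log2 of normalised count plus 1, for 12052 genes counted in all 8; colour gives genes per bin and dashed lines mark 4-fold. Most genes beyond 4-fold lie along one axis only, and 129 are 4-fold lower in both.

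Cell type markers were examined as lists. Each stands beside the number of lost genes that all 15695 genes give at the same mean TPM, in 50 ranks of level. Transcript length and count were not matched. In bulk RNA fewer cells of a type and less RNA per cell cannot be told apart. Of the 12 general epithelium markers 0 were lost, and 0.18 would be among genes of the same level. Krt19, a keratin of ducts, had 24697 and 19093 normalised counts in DMSO 20 and DOX 19 against 9299 to 53362, and Krt18 and Cldn7 also lay within the range of the other 6. The summed epithelial level was 2021 and 1834 TPM, within 956 to 4150 TPM.

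Of collecting duct principal cell markers, 6 of 10 were lost and 1.99 would be at the same level. Scnn1b and Scnn1g, subunits of the epithelial sodium channel, were at 0 in both low-detection libraries, against 108 to 8668 (median 1586) and 4.20 to 1459 (median 173) normalised counts. Hsd11b2, which protects the mineralocorticoid receptor from glucocorticoids, was at 0 against 72.2 to 391. Fxyd4, a regulator of the sodium pump, was kept at 248 and 291 against 116 to 6262, and Gata3, a transcription factor of the duct, at 2403 and 4014 against 1175 to 4764. The summed level of the list, 33.7 and 46.3 TPM, still lay within its group's range of other libraries in both treatment groups.

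The ureteric tip lost 2 of 11 markers (0.63 at the same level). Gfra1, the co-receptor of GDNF, had 44944 and 39671 normalised counts in DMSO 20 and DOX 19 and 13521 to 32418 (median 20767) in the other 6, so both low-detection libraries were the highest. Wnt7b lay within the others' range, at 12133 and 11793. Wnt9b, a signal of the ureteric stalk, was at 0 in both against 56.2 to 1383 (median 409), and Sox8 at 0 against 32.6 to 269.

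Nephron progenitors lost 4 of 10 markers (1.51 at the same level), among them Cited1 (0 against 98.5 to 1025), Meox1 (0 against 43.0 to 144) and Osr1 (0 against 35.7 to 637). The abundant Itga8, the integrin receptor of nephronectin, stayed at 37623 and 30305 against 6141 to 46364, and Sall1 at 4505 and 4612 against 1555 to 5244. Podocytes of the glomerulus lost 3 of 10 markers, where 0.14 would be at the same mean TPM and 0.58 at the same median TPM. Among these were the phosphatase gene Ptpro (0 against 187 to 16268, median 805) and Clic5 (0 against 89.1 to 3842). The podocyte and stromal transcription factor Tcf21 (3078 and 1943) lay within the range of the other 6. In both lists the summed level lay within the range of the other libraries, at 217 and 156 TPM for nephron progenitors and 245 and 215 TPM for podocytes against 45.2 to 323 TPM and 98.5 to 767 TPM.

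The loop of Henle and distal tubule lost 3 of 7 markers (2.35), with Trpm6, a magnesium channel, at 0 against 156 to 497, and the summed level was 1.59 and 4.59 TPM against 4.36 to 88.4 TPM. Calb1, a calcium buffer of the distal tubule, had 1 count in DMSO 20 (1.28 normalised) and 562 normalised counts in DOX 19, against 150 to 7231. Of 4 proximal tubule markers, Cubn, an endocytic receptor, was lost (0 against 48.2 to 79.1), and 2 were lost in all (1.78). Slc5a2, the glucose transporter of the proximal tubule, was instead above the other 6, at 2090 and 1075 against 549 to 927. The summed proximal tubule level was 23.7 and 14.4 TPM against 6.85 to 12.9 TPM, but Slc5a2 made up 100% and 77.4% of it. The remaining members summed to 0 and 3.24 TPM against 0.470 to 4.89 TPM, with Slc22a8, an organic anion transporter, at 0 in both low-detection libraries against 0 to 288 normalised counts. Intercalated cells had 2 markers counted in each of the other 6 and lost neither (0.12), with a summed level of 3.36 and 3.45 TPM, below the 6.01 to 18.5 TPM of the others. Urothelial and basal cells lost 2 of 6 (1.65), with a summed level of 38.1 and 132 TPM against 3.76 to 34.0 TPM. Krt14, a basal keratin, had 351 normalised counts in DMSO 20 and 6903 in DOX 19 against 33.1 to 1036.

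Losses among stromal and vascular markers were near the number at the same level. Stroma and fibroblasts lost 1 of 13 markers (0.67), with Col1a2 at 44138 and 23007 against 6831 to 128293 and Col1a1 at 11046 and 11923 against 6448 to 163258. Smooth muscle and pericytes lost 0 of 11 (0.54), and Acta2, smooth muscle actin, had 25931 and 16981 against 3882 to 148049. Endothelium lost 3 of 11 (2.66), with 6 at 0 in DMSO 20 and 3 in DOX 19. Its defining genes Pecam1 and Erg were at 0 in both low-detection libraries and at most at 84.7 and 10.2 normalised counts elsewhere, while its 3 most abundant members lay within the range of the other 6. Plvap, a fenestral diaphragm protein, had 34186 and 49355 against 6813 to 59033, the sialoprotein gene Emcn 2231 and 2744 against 1511 to 9607, and Egfl7, a secreted vascular protein, 2122 and 1873 against 1789 to 2752.

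Macrophages lost 4 of 7 markers (1.95), their summed level was 27.6 and 8.67 TPM against 18.9 to 71.2 TPM, and Ptprc, the common leukocyte antigen, had 565 normalised counts in DMSO 20 and 0 in DOX 19 against 66.2 to 4396. The lymphocyte kinase gene Lck was at 0 in both against 421 to 1806 (median 627), at least 110-fold lower, and both of the lymphocyte markers counted in the other 6 were lost (0.61). Adrenal steroid cells lost 3 of 4 (0.97), though the fourth, Cyp11a1, had 3318 normalised counts in DMSO 20 and 72.2 in DOX 19 against 56.9 to 1092. Among those lost were Star, the cholesterol carrier of steroid synthesis (0 against 60.5 to 138), and the corticotropin receptor gene Mc2r (0 against 56.2 to 882). Neuron and Schwann cell markers lost 1 of 7 (1.29), motile cilia 2 of 5 (1.59), adipocytes 1 of 3 (0.71) and red blood cells 1 of 2 (1.05). The summed level of red blood cell markers was 0.906 TPM in DMSO 20 and 25.1 TPM in DOX 19, the highest of all 8 libraries. In this list 2 members, the globin genes Hba-a1 and Hba-a2, were at least 2-fold above the other 6 in both low-detection libraries. Hba-a1 had 20.5 and 148 normalised counts against at most 5.0.

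**Figure D5:**
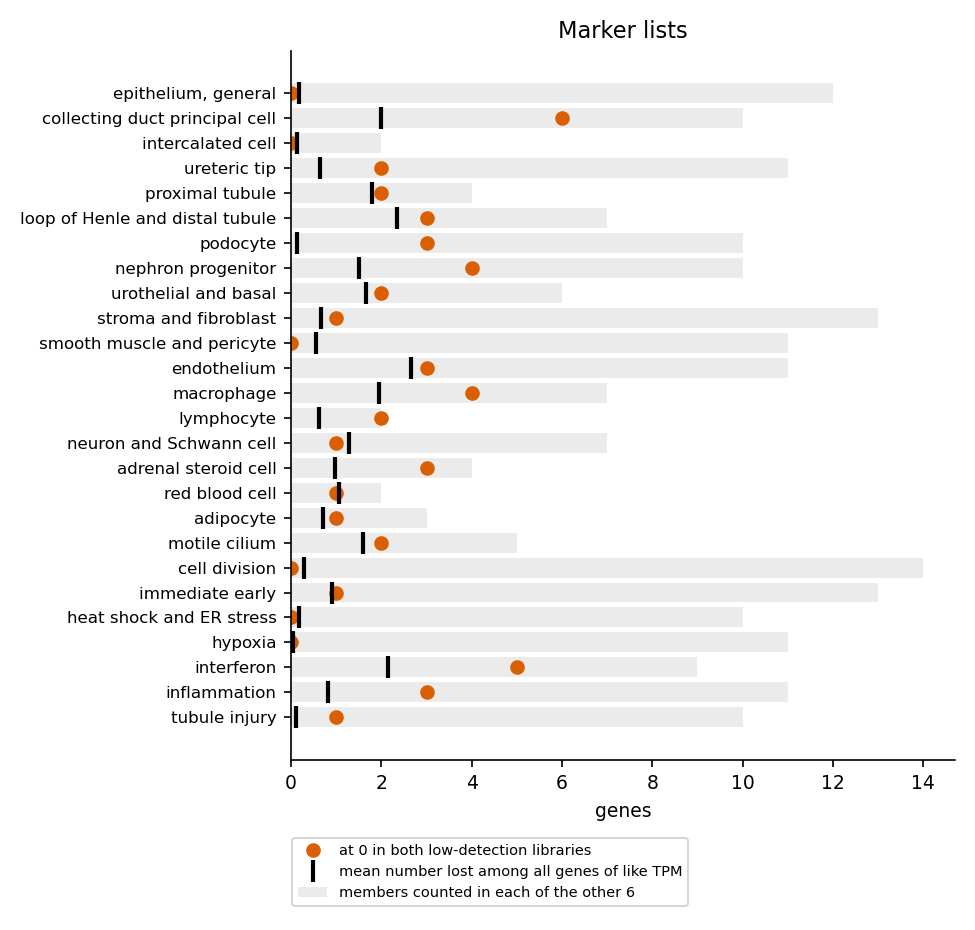
For each of 26 marker lists, the members counted in each of the other 6 libraries (grey bar), the members at 0 in both low-detection libraries (orange points) and the number lost among all genes of like mean TPM (black marks). Lists such as general epithelium, cell division and hypoxia lost 0 members, and collecting duct principal cells lost 6 of 10 beside a mark at 1.99.

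Among cell programmes, the 14 cell division genes, the 11 hypoxia genes and the 10 genes of heat shock and ER stress lost 0 members, with 0.29, 0.04 and 0.17 at the same level. Levels within them were lower in places. Ldha, the lactate dehydrogenase of glycolysis, had 103626 and 128488 normalised counts in DMSO 20 and DOX 19 against 132263 to 747891, below all others. The summed hypoxia level was 2207 and 2735 TPM against 2834 to 12602 TPM, where both low-detection libraries were again lowest. Ldha made up 73.4% and 67.0% of this sum, and without it only DMSO 20 was below the others (587 and 902 TPM against 655 to 2991 TPM). Immediate early genes lost 1 of 13 (0.90), the stress factor gene Atf3 (0 against 192 to 602), while Egr1 (23107 and 31365 against 8294 to 19806) and Junb (15185 and 18739 against 7520 to 13988) were above the other 6. The summed immediate early level, 944 and 911 TPM, was also above their 510 to 868 TPM. Interferon genes lost 5 of 9 (2.14), including Ifit3 (0 against 148 to 286) and Ifit1 (0 against 27.0 to 375), and Isg15 had 0 and 3.38 normalised counts against 97.6 to 440.

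Inflammation genes lost 3 of 11 (0.82), among them Tnf (0 against 14.9 to 520). The summed inflammation level was 517 and 263 TPM against 530 to 3176 TPM, of which Lcn2 made up 91.0% in the other 6. Without Lcn2 it was 233 and 153 TPM, within their 83.8 to 244 TPM. Nfkbiz and Nfkbia, which encode regulators of NF-kappaB, also lay within the range of the other 6, at 13647 and 4745 against 3503 to 14709 and at 2478 and 2879 against 2399 to 3824. Lcn2, a siderophore-binding protein of injured tubules, was kept but low, at 9443 and 4018 against 16006 to 121274. Ccl2, a monocyte chemokine of the same list, was at least 2-fold above the others, with 1209 and 2123 against 188 to 344. In the tubule injury list 1 of 10 was lost (0.11), Havcr1, the kidney injury molecule, at 0 against 28.3 to 1180. Spp1, osteopontin, the most abundant gene of that list, had 6310012 and 10021189 normalised counts, within the 2700478 to 11637383 of the other 6, and Clu, clusterin, had 48067 and 22422, below their 57094 to 498667. Over the 26 marker lists the summed level of both low-detection libraries was above all the other 6 in 3 lists (proximal tubule, urothelial and basal, immediate early), below all in 4 (intercalated cell, lymphocyte, hypoxia, inflammation) and within their range in 11. A sum can rest on one gene. The most abundant member of each list was then left out, a choice made after seeing the data. Of those 3 lists 1 (immediate early) was still above, and of those 4 lists 1 (lymphocyte) was still below. Other lists moved to below: loop of Henle and distal tubule, macrophage, interferon and tubule injury. That made 5 lists below and 1 above.

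All 78 cytosolic ribosomal protein genes, 77 mitochondrial ribosomal protein genes, 37 complex I genes and 37 proteasome genes counted in the other 6 libraries escaped loss. At most 0.17 would be lost at the same level in any of these families. The summed cytosolic ribosomal level, 38583 and 39873 TPM in DMSO 20 and DOX 19, was below the 40817 to 75094 TPM of the other 6. In each of the other families the sum of DMSO 20 lay within their range. Zfp zinc finger genes lost 17 of 336 (30.2 at the same level) and Hox genes 1 of 33 (4.01), Hoxc5. Replication histones, most of whose RNAs lack a poly-A tail, lost 8 of 57 (14.7). Small nucleolar RNA genes lost 25 of 84 (7.49), and microRNA precursors 32 of 352 (30.8). Many of these short RNAs lie within host genes, and reads of those may be shared with the host. Predicted genes and Rik clones lost 241 of 1222 (278). These numbers are matched on mean TPM, so transcript length and count were not matched. Snord52, a lost small nucleolar RNA, had a mean of 15.7 TPM in the other 6 libraries from 8.40 to 77.6 normalised counts.

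The median log2 difference of each list was taken relative to the median of all genes. It was -4.76 for principal cells (-4.40 without DMSO 20 and -5.70 without DOX 19), -4.74 for interferon genes (-5.08 and -5.34) and -5.71 for the loop of Henle and distal tubule (-5.82 and -6.46). For smooth muscle and pericytes it was 0.33 (0.29 and 0.22) and for cytosolic ribosomal proteins -0.30 (-0.30 and -0.47). For general epithelium 0.30 became 0.04 without DMSO 20 and -0.06 without DOX 19, so this list had no direction that held in both. In 9 of 37 lists the sign was not kept when one or the other low-detection library was left out. Medians of lists with genes at 0 depend on the pseudocount: with 10 in place of 1, those of principal cells, interferon genes and the loop of Henle list, before subtracting that of all genes, went from -5.04, -5.01 and -5.98 to -2.31, -2.28 and -3.51.

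The comparison of DOX with DMSO was not used to choose the libraries, and asks which genes differ when Pkd2, the gene of polycystin-2, can be deleted. Pkd2 itself had 6039, 6128 and 4813 normalised counts in DMSO 15, 3 and 5 and 7538 in DMSO 20, and 4136, 4624 and 5072 in DOX 9, 21 and 12 and 5952 in DOX 19. Each low-detection library was the highest of its group, and the groups overlapped. The log2 difference was -0.31 ± 0.21 (SE) with 4 libraries a group, adjusted p = 0.999 by DESeq2, and -0.28 ± 0.23, adjusted p = 0.910, without the low-detection libraries. The count covers the whole gene, so it would include reads from exons outside a deleted part. The study reports less polycystin-2 protein after doxycycline, though still detectable, and unconverted cells presumed wild type in differentiated structures. Whether any of these bears on the Pkd2 count was not tested.

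A gene was called where DESeq2 gave an adjusted p up to 0.05 and a change of 1.5-fold or more. With all 8 libraries 25 of 17011 genes (0.147%) were called, 14 higher and 11 lower in DOX. Without DMSO 20 and DOX 19 there were 51 calls of 17252 (0.296%), 21 higher and 30 lower. These fits share 6 libraries, and 9 genes were called in both: Fhod3, Cyp11a1, Uap1l1, Cdsn, Grhl3, Ankrd37, Tph1, Slc3a2 and Cox7a1. edgeR called 0 genes either way, and before adjustment 476 and 751 genes had a p under 0.05. The number of DESeq2 calls also moved with other libraries, to 75 without DMSO 15, 38 without DOX 21, 17 without DMSO 5 and 14 without DMSO 3. Of the low-detection libraries taken singly, leaving out DMSO 20 gave 48 calls and leaving out DOX 19 gave 17.

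The 42 genes called only without the low-detection libraries included 13 at 0 in both of them (31.0%) and 7 at 0 in one (16.7%), where 17.1% and 12.4% of all 17252 genes tested were. The zeros enter the fit with all 8 libraries, so these shares are a description. In 41 of the 42, at least one low-detection library lay outside the range of the other 3 of its group, as was so for 88.6% of all 17252 genes tested. Rgs11, a regulator of G protein signalling, had 1090, 736 and 1194 normalised counts in DMSO 15, 3 and 5, 102, 135 and 237 in DOX 9, 21 and 12, and 990 in DMSO 20 but 730 in DOX 19. Its log2 difference was -2.66 ± 0.42 (adjusted p = 2.04e-06, DESeq2) without them and -1.74 ± 0.64 (adjusted p = 0.528) with all 8. DOX 19 thus lay above the other DOX libraries and just below the lowest DMSO library. Tgfbi, an extracellular matrix protein induced by TGF-beta, had 14355, 18484 and 12729 in DMSO and 44987, 62305 and 41491 in DOX, with 17605 in DMSO 20 and 14628 in DOX 19. The difference was 1.73 ± 0.29 (adjusted p = 2.29e-05, DESeq2) and became 1.37 ± 0.43 (adjusted p = 0.266). Edn1, endothelin-1, had 1011, 1871 and 1643 in DMSO and 236, 98.7 and 364 in DOX, with 64.0 in DMSO 20 and 0 in DOX 19. Its log2 difference was nearly the same, -2.68 ± 0.51 (adjusted p = 0.000576, DESeq2) without the low-detection libraries and -2.72 ± 1.32 (adjusted p = 0.896) with them, while the standard error was larger.

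Of the 16 genes called only with all 8 libraries, 1 (6.25%) was at 0 in a low-detection library, against 28.9% of all 17011 genes tested. For 6 of the 16 (37.5%) both low-detection libraries lay within the range of their group, against 10.9% of all genes tested. Both libraries enter the fit that called these 16 genes and so help decide the call. These shares are therefore a description. Tns1, a focal adhesion protein, had 12209, 8990 and 10099 normalised counts in DMSO 15, 3 and 5 and 10704 in DMSO 20, against 5610, 5275 and 6111 in DOX 9, 21 and 12 and 5701 in DOX 19. Its log2 difference was -0.89 ± 0.15 (adjusted p = 3.16e-05, DESeq2), and -0.87 ± 0.23 (adjusted p = 0.0510) with 3 libraries a group. Rp2h, Ttc7b and Lurap1l had log2 differences of -0.65, 0.97 and -0.86 with 8 libraries and -0.56, 0.84 and -0.80 with 6. Their groups did not overlap in either set. For Fhod3, a formin of actin filaments, called in both fits, DMSO libraries had 1473 to 2029 and DMSO 20 had 2574, while DOX libraries had 302 to 589 and DOX 19 had 227. Cdsn, an adhesion protein of cornified epithelium, had 49.2 to 73.6 in DMSO and 693 to 1674 in DOX, with 0 in DMSO 20 and 372 in DOX 19. Its adjusted p was 1.60e-19 without the low-detection libraries and 0.0113 with them (DESeq2), at log2 differences of 4.35 ± 0.43 and 4.45 ± 1.0.

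For the 12135 genes counted in all 8 libraries the median standard error of the log2 difference was 0.37 with all 8 libraries and 0.33 without the low-detection libraries. DESeq2 called 21 of the 12048 tested (0.174%) with all 8 and 28 of 12115 (0.231%) without them, and edgeR called 0 in both fits (453 and 540 had a p under 0.05 before adjustment). The genes lost in both low-detection libraries are not compared in this way, because the zeros that define them also enter the fit.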

How the data were processed

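RNA of the 8 cultures was made into poly-A libraries with the SMART-Seq v4 ultra low input kit and sequenced as paired reads on 2 flow cell lanes, 4 samples in each; the sources used here do not give the lane of each library, so whether DMSO 20 and DOX 19 shared a lane could not be checked. The authors aligned reads with STAR to mm10 and deposited, per library, counts for 33068 RefSeq transcripts with FPKM and TPM; featureCounts and DESeq2 are named in their processing notes, and the versions are not given in the sources used here. The deposited counts and TPM were summed over the transcripts of each of 24063 symbols, so reads that isoforms share may be counted more than once; the deposited FPKM was only checked. Library totals are in the text; their number and depth set the precision.

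Counts were scaled with median-of-ratios size factors, and log2 values used a pseudocount of 1. DOX was compared with DMSO by DESeq2 1.42.0 (Wald test, Benjamini-Hochberg adjustment, independent filtering at 0.1), with edgeR 4.0.16 as the alternative, in R 4.3.3. Both were tested on simulated counts. The members and the 37 gene lists were chosen with earlier results of these data known. Genes named are the 10 most extreme lost, reduced and raised in both low-detection libraries, and 5 at 0 and 5 highest in each alone. From each list they are the 3 most abundant members, with up to 3 at 0 in both. For DOX against DMSO they are Pkd2 and the genes with the 5 smallest adjusted p of each fit. Ccl2, Hba-a1, Hba-a2 and the genes listed as called in both fits were named after their values were seen. Coordinates are RefSeq GRCm38.p6. Some genes that this rule names are not reported here.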

Additional observations from a re-analysis of the deposited data

Results flagged for a closer look

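Dixon's test at 95% was applied to 37 measures in each treatment group of 4 libraries (total count, the summed TPM of 26 marker lists and the genes named for DOX against DMSO), 74 groups in all, of which chance flags about 1 in 20. The number of genes detected was left out, since it chose the libraries. The test picked 2, each a low-detection library, which marks those values and is no test of low detection. The summed TPM of endothelial markers was 551 in DMSO 20 against 181 to 227 in the other DMSO libraries, with 434 TPM of Plvap. Of the same list Emcn and Egfl7 lay within the range of the other 6 there, and Pecam1 and Erg had 0 counts. Red blood cell markers summed to 25.1 TPM in DOX 19 against 0.606 to 0.978, with Hbb-b1 at 219 normalised counts; counts of near-identical globin copies could not be told apart.

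In 2 of 26 marker lists the low-detection libraries stood on opposite sides of their groups, a difference that was not tested. Adrenal steroid cell markers summed to 47.9 TPM in DMSO 20 against 5.16 to 26.5 in the other DMSO libraries, and to 0.951 in DOX 19 against 9.02 to 17.0 in the other DOX libraries; Cyp11a1 had 3318 and 72.2 normalised counts. Motile cilium markers summed to 13.9 TPM in DMSO 20 against 2.92 to 9.29, and to 2.42 in DOX 19 against 4.17 to 5.09; Rsph1, a radial spoke gene, had 631 and 0 normalised counts.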

How the results depend on the processing

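No paired analysis was possible because the DMSO and DOX libraries share no replicate number. The number of genes lost in both low-detection libraries, 1636, was 1568 with all libraries thinned to 1 equal total, 1293 with up to 5 counts taken as lost, 937 where at least 10 counts were asked of each other library, and 1685 to 1939 with one of the other 6 left out. Losses in DMSO 20 alone, 1109, and in DOX 19 alone, 815, were 1076 and 806 with thinning, 996 and 749 with up to 5 counts taken as lost, and 814 and 570 at 10 counts. With one library out they were 1116 to 2745 and 822 to 2451, the highest where the other low-detection library was left out, since genes lost in both then count. Genes 2-fold lower numbered 770 at a mean of at least 100 and 1793 to 2029 with one library out. Genes 2-fold higher numbered 198 with TMM factors, 18 at 4-fold and 136 to 197 with one library out (197 without DMSO 5). With TMM factors the median of all genes turned from -0.27 to 0.058 and that of mitochondrial ribosomal proteins from -0.33 to 0.00; olfactory and pheromone receptors turned to 1.29 at a mean of at least 100 (the filter keeps fewer genes). With level taken as median TPM, added after seeing the data, microRNA precursors had 32.3 genes at the same level, above the 32 lost. DESeq2 calls for DOX against DMSO, 25 with all libraries, were 51 without both low-detection libraries, 41 with low detection as a covariate (19 of the 25 among them), 16 at 10 counts in every library and 14 to 75 with one library out (75 without DMSO 15, 48 without DMSO 20, 38 without DOX 21, 17 without DOX 19 or DMSO 5, 14 without DMSO 3); edgeR gave 0 in all, 0 without them and 0 with the covariate (476, 751 and 682 genes under 0.05 before adjustment). The causes were not tested.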
